A study of Mus musculus with 12 samples.

Results

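The unfolded protein response genes described here are 32 genes of the endoplasmic reticulum (ER) stress pathway. They were listed by name, with earlier results of these data known, and each was read from its brightest probe set annotated to 1 gene only. They are 32 of the 18193 genes on the arrays and fall into 3 branches by the transcription factor each is best known to serve, with 11 genes in the ATF4 branch, 13 in the ATF6 branch and 8 in the XBP1 branch. Many chaperone genes answer to both ATF6 and XBP1, so the line between these branches is not sharp. Liver RNA came from adult C57BL/6J mice that lacked both Dscr-1 and ApoE (double null), ApoE alone (ApoE null), Dscr-1 alone (Dscr-1 null) or neither (WT), with 2 arrays per genotype. The labels give HFD (high-fat diet) for 12 weeks for all 4 liver genotypes, where the results text of the study gives normal chow for the arrays. The aortic arrays hold primary endothelial cells isolated from the aorta of adult C57BL/6J mice and kept in culture for several days, from double null and ApoE null animals with 2 arrays per genotype, so both aortic groups lacked ApoE. The titles and genotype labels of the aortic controls say ApoE null, where the design text of the series names Dscr-1 knockout mice. Dscr-1 (gene Rcan1) is the feedback inhibitor of the phosphatase calcineurin, and ApoE is the apolipoprotein by which lipoprotein remnants are cleared from blood.

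When unfolded proteins build up in the ER, 3 sensors in its membrane signal to the nucleus. PERK (gene Eif2ak3) phosphorylates the initiation factor eIF2 alpha, which slows most translation and raises that of the transcription factor ATF4. ATF6 is cut in the Golgi and its freed part enters the nucleus, and IRE1 alpha (gene Ern1) splices the mRNA of Xbp1 into the form that encodes the active factor. ATF6 and XBP1 are best known for raising ER chaperones and degradation factors. ATF4 is best known for raising amino acid metabolism, the factor CHOP (gene Ddit3) and a phosphatase subunit that reverses PERK's signal. Hepatocytes and endothelial cells secrete much protein, and the pathway is well known in fatty liver and in vessel walls exposed to modified lipoproteins. Probe sets report mRNA abundance and do not separate spliced from unspliced Xbp1 or show the phosphorylation and cleavage steps.

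Promoters were set beside the branches because binding sequences for these factors are known. The branches hold known targets of each factor, and such knowledge is not independent of these sequences. The shares below therefore describe the branches and do not test them. The RefSeq promoter table (build GRCm38.p6) covers 250 bases before to 50 bases after each start site and held 28 of the 32 members. Both strands were searched. The ER stress response element (ERSE), CCAAT and CCACG with 9 bases of any kind between them, is bound by ATF6 together with NF-Y. It was present in 8 of these 28 promoters, 6 of 10 in the ATF6 branch (Hspa5, Calr, Canx, Hsp90b1, Pdia6 and Creld2), 2 of 8 in the XBP1 branch (Dnajc3 and Syvn1) and 0 of 10 in the ATF4 branch, against 0.119% of 32851 promoters in the table. The second form of the element (ERSE-II), ATTGG and the same CCACG with 1 base of any kind between them, was in the promoters of Herpud1 and Dnajb11, against 0.0365% of all promoters. The C/EBP-ATF response element, TGATGNAA (CARE), through which ATF4 acts, was in 5 of 10 ATF4 branch promoters (Chac1, Atf3, Asns, Trib3 and Nupr1) and in that of Herpud1, against 3.97% of all promoters. The XBP1 sequence TGACGTGG (UPRE) was in 0 of the 28 member promoters and in 0.676% of all promoters, which says only that these letters were not in these windows. A match is a description of the sequence and no evidence of binding in these samples.

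For members whose values the results turn on, the stretches with matches upstream of the start site read as follows, on the strand of the gene and with the matches in capitals. In a match on the opposite strand the capitals read as the reverse complement of the motif.
Hspa5, ERSE, chr2:34772010-34772058, plus strand: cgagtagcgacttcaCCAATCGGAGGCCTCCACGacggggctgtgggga
Creld2, ERSE on the opposite strand, chr15:88819505-88819553, plus strand: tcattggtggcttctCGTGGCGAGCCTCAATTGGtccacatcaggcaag
Pdia6, ERSE, chr12:17266476-17266524, plus strand: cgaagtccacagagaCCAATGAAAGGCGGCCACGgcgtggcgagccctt
Syvn1, ERSE, chr19:6046517-6046565, plus strand: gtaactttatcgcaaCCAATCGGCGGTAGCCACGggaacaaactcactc
Herpud1, CARE on the opposite strand and ERSE-II, chr8:94386302-94386402, plus strand: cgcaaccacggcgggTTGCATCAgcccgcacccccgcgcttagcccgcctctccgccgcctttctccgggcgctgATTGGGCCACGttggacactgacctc
Chac1, CARE on the opposite strand, chr2:119351034-119351071, plus strand: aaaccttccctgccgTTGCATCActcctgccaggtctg
Atf3, CARE on the opposite strand, chr1:191183421-191183458, minus strand: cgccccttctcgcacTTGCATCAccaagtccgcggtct
Asns, CARE, chr6:7693210-7693247, minus strand: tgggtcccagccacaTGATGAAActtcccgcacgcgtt
Nupr1, CARE on the opposite strand, chr7:126625558-126625595, minus strand: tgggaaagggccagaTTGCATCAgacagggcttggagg

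Liver values are MAS5 signals, a linear brightness of the probe set, brought by the authors to a mean of 100 per array. Aortic values are log2 signals as deposited. Apoe signal was 79.8 to 83.7 in double null and 177.1 to 305 in ApoE null livers, against 19937.4 to 21510.3 on the 4 liver arrays with the gene. The probe sets of Rcan1 could not check the Dscr-1 genotype, since where they lie relative to the deleted part was not known. Hprt, a purine salvage gene picked once its levels were known, had a liver signal of 884.2 and 912.6 in double null, 1018.7 and 933.3 in ApoE null, 819.7 and 65.9 in Dscr-1 null, and 46.9 and 54.8 in WT livers, so the 2 arrays labelled Dscr-1 null differed from each other there. On the aortic arrays its log2 signal was 10.68 and 10.63 in double null cells, against 6.90 and 6.73 in ApoE null cells, and that of Apoe was 8.29 and 6.69 in double null cells, against 7.27 and 7.17 in ApoE null cells, with no aortic array of mice that have ApoE to set it against. Liver ApoE null replicate 1 stood apart, with a mean correlation of 0.835 to the other arrays against 0.873 to 0.883 for the other 7, and aortic double null replicate 2 had 0.965 against 0.98 to 0.982. The liver arrays carried hepatocyte markers, 9 of 9 above the array median in each genotype, and the aortic arrays endothelial markers, 10 of 10 in both genotypes. Beside them, the summed signal of 10 macrophage and Kupffer cell markers was 13173 to 18900 in double null and 8700 to 13579 in ApoE null livers, against 5730 to 6928 in Dscr-1 null and 5191 to 7044 in WT livers. In whole liver, fewer cells of a type and less RNA per cell cannot be told apart.

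All 32 members passed the filter on low values in both tissues, which asks for a signal above the array's median on at least 2 arrays. In liver 24 of the 32 lay above the median on all 8 arrays. The other 8 were Atf3, Trib3, Chac1, Asns, Sesn2, Nupr1 and Ppp1r15a of the ATF4 branch and Sdf2l1 of the XBP1 branch, above it on 5 to 7 arrays, so the ATF4 branch was the one read closest to background in liver. Differences were tested with limma on log2 values (log2 of the signal plus 16 in liver), with a gene past the threshold at an adjusted p under 0.05. None of the 32 members passed in any of the 6 comparisons made, 5 in liver and 1 in aortic cells. Over all genes 2 of 14758 passed between double null and WT livers (0.0136%), 2 between ApoE null and WT livers (0.0136%), 1 between Dscr-1 null and WT livers (0.00678%), 0 between double null and ApoE null livers (0%), 0 for the interaction (0%), and 2 of 11647 between the aortic genotypes (0.0172%). These p-values rest on the spread between the 2 arrays of a genotype, pooled over the genotypes of a tissue and moderated over all probe sets kept. An exact permutation test of a single gene, two-sided, cannot go below 0.333 with 2 arrays per genotype. The comparisons with WT share the same 2 WT arrays, and both comparisons with ApoE null livers share the same 2 ApoE null arrays.

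Of the sensors and factors of the 3 branches, Atf4 and Xbp1 overlapped WT in each mutant liver, and Atf6 and Ern1 had fitted levels below WT by less than 1 on the log2 scale without passing the threshold. Atf4 had a signal of 621.3 and 425.1 in double null, 523.8 and 616.2 in ApoE null, 571.8 and 473.9 in Dscr-1 null, and 634.6 and 456.7 in WT livers. Its 4 genotypes overlapped, and the log2 differences from WT were −0.065, 0.075 and −0.047 for double null, ApoE null and Dscr-1 null livers (standard error 0.39 each). Its second probe set gave 0.55 for double null and 0.34 for Dscr-1 null livers, on the other side of 0. Atf6 had 343.7 and 362.7 in double null, 252.6 and 372.3 in ApoE null, 304.3 and 416.6 in Dscr-1 null, and 386 and 489.5 in WT livers. Both double null and both ApoE null arrays lay below both WT arrays, with log2 differences of −0.29 and −0.48 (standard error 0.38 for both), and limma gave an adjusted p of 0.966 for double null and 0.893 for ApoE null livers. Xbp1 had 3969.1 and 5383.9 in double null, 3802.8 and 4254.9 in ApoE null, 3873.4 and 2660.3 in Dscr-1 null, and 2971.2 and 4186.2 in WT livers. Each mutant overlapped WT, both double null arrays lay above both Dscr-1 null arrays, and the 3 other Xbp1 probe sets that passed the filter gave the same sign as the one reported in each comparison with WT. Ern1, the sensor upstream of it, had 841.3 and 979.3 in double null, 716.1 and 651 in ApoE null, 848.1 and 875.8 in Dscr-1 null, and 1138.2 and 944.4 in WT livers. Both ApoE null and both Dscr-1 null arrays lay below both WT arrays, at log2 differences of −0.59 and −0.26 (standard error 0.34 for both, with 0.86 and 1 as adjusted p). For ApoE null livers 2 of the 3 other Ern1 probe sets gave the opposite sign, 0.81 and 0.27.

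Eif2ak3, the gene of PERK, was the sensor with the widest differences. Its signal was 97.5 and 61.1 in double null, 213 and 196.6 in ApoE null, 83 and 152.9 in Dscr-1 null, and 89.5 and 141.5 in WT livers. ApoE null livers stood above all other genotypes, and double null livers overlapped Dscr-1 null and WT livers. Between double null and ApoE null livers the log2 difference was −1.24 (standard error 0.44, adjusted p = 0.673), and between ApoE null and WT livers 0.78 (standard error 0.44, adjusted p = 0.852). The interaction, which asks whether the loss of Dscr-1 went with another difference in ApoE null than in WT background, was −1.24 (standard error 0.62, adjusted p = 0.962). Without 1 array in turn the double null minus ApoE null difference ran from −1.52 to −0.96.

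**Figure D1:**
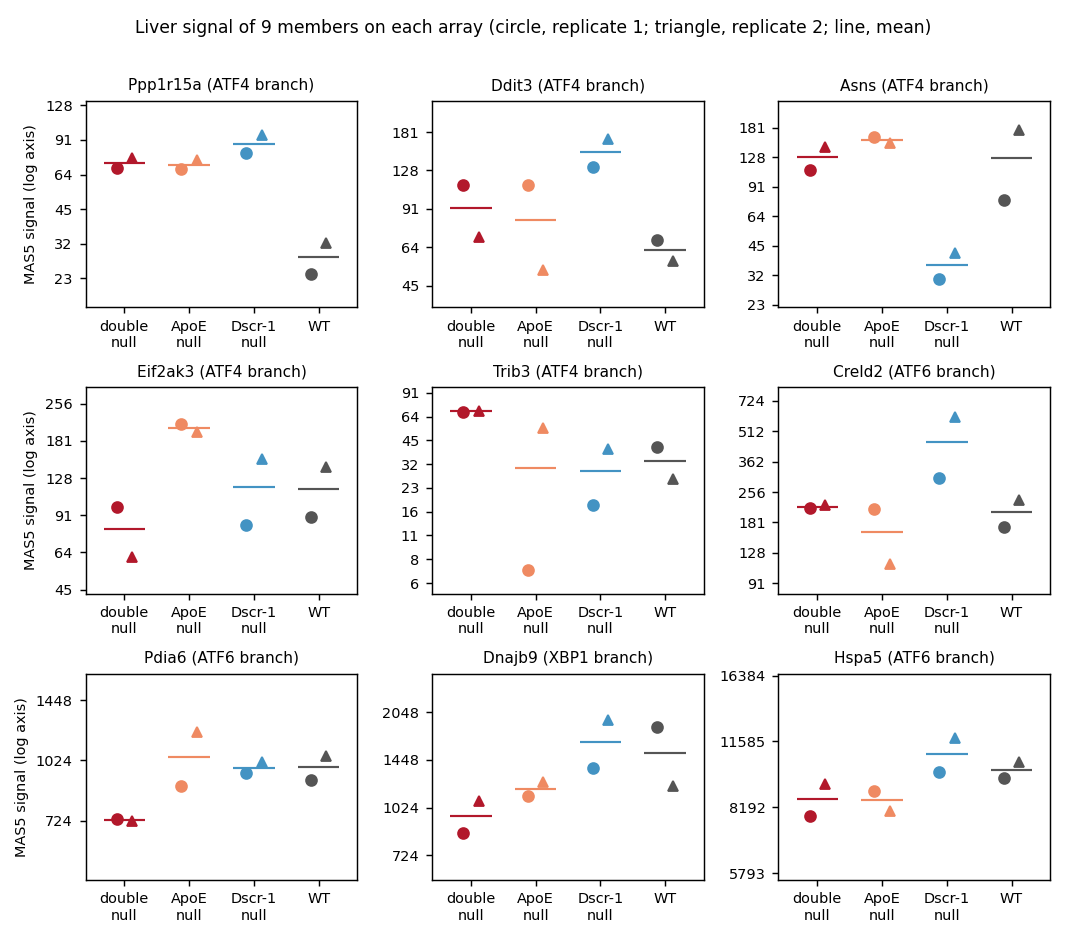
MAS5 signal (log axis) of 9 members on each of the 8 liver arrays, by genotype, with circles for replicate 1, triangles for replicate 2 and a line at the mean of the 2. Ppp1r15a was 67.4 to 95.2 on the 6 mutant arrays, above 23.7 and 32.3 on the WT arrays, and Asns was 30.8 and 41.5 in Dscr-1 null livers, below the other 6 arrays.

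Further down the ATF4 branch, Ppp1r15a was the member that stood apart in all 3 mutants. It encodes GADD34, the stress-induced subunit that brings a phosphatase to eIF2 alpha. Its signal was 68.6 and 75.3 in double null, 67.4 and 73.9 in ApoE null, and 79.2 and 95.2 in Dscr-1 null, against 23.7 and 32.3 in WT livers. The 6 mutant arrays lay above the array medians of 32.6 to 44.7, and both WT values lay below theirs of 32.2 and 34.7, so the WT level was not well resolved. The log2 differences were 1.01 for double null, 0.98 for ApoE null and 1.23 for Dscr-1 null livers (standard error 0.35 each), with adjusted p = 0.716, 0.69 and 0.89. They remained between 0.84 and 1.37 without any 1 array. All 3 rest on the same WT arrays, and the double null minus ApoE null difference, which does not use them, was 0.021 (standard error 0.35). Ppp1r15b, the subunit made without stress, had 824 and 904.2 in double null, 734.5 and 847.1 in ApoE null, 828 and 995.3 in Dscr-1 null, and 949.9 and 1022.2 in WT livers, below WT without overlap in double null and ApoE null livers (log2 differences of −0.19 and −0.32).

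Ddit3, the gene of CHOP, a factor tied to death of stressed cells, had 112 and 70.2 in double null, 111.9 and 52.2 in ApoE null, and 132.2 and 170.5 in Dscr-1 null, against 68.5 and 56.6 in WT livers. Both Dscr-1 null arrays were above all other liver arrays, by a log2 difference from WT of 1.09 (standard error 0.44, adjusted p = 0.997), and both double null arrays were above WT by 0.42 (adjusted p = 0.955). Asns, the asparagine synthetase, had 110.4 and 144.9 in double null, 161.3 and 150.5 in ApoE null, and 30.8 and 41.5 in Dscr-1 null, against 77.7 and 175.8 in WT livers. The Dscr-1 null arrays were the lowest 2 of the 8, at −1.37 (standard error 0.44, adjusted p = 0.902), while the other Asns probe set gave −0.18. Ddit3 and Asns therefore lay on opposite sides of WT in the livers labelled Dscr-1 null, although both are ATF4 targets, and Chac1, Atf3, Trib3 and Nupr1 overlapped WT there.

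Sesn2, a stress-induced regulator of the growth kinase mTORC1, had 45.8 and 18.6 in double null, 18.9 and 19.1 in ApoE null, 60.5 and 66.6 in Dscr-1 null, and 53.1 and 65.9 in WT livers. It was below WT without overlap in ApoE null (−1.10, standard error 0.40, adjusted p = 0.692) and double null livers (−0.70, adjusted p = 0.9), where it was −0.28 without double null replicate 2 and −1.12 without replicate 1. The second Sesn2 probe set gave 0.61 and 0.91 in these comparisons, so its direction depends on the probe set. Trib3, a pseudokinase that restrains ATF4, had 68.6 and 69.8 in double null, 6.8 and 53.9 in ApoE null, 17.6 and 40.1 in Dscr-1 null, and 41.2 and 25.8 in WT livers. The double null arrays were the highest 2 of the 8, at 0.80 against WT (standard error 0.57, adjusted p = 0.932) and 1.09 against ApoE null livers (adjusted p = 0.848), where the second Trib3 probe set gave −0.21 and −0.97. The difference from ApoE null livers was 0.29 without ApoE null replicate 1, whose signal of 6.8 lay below its array median of 44.7, and 1.90 without replicate 2. Chac1, an enzyme that breaks down glutathione, had 156.7 and 154.9 in double null, 177 and 23.6 in ApoE null, 175.6 and 92.7 in Dscr-1 null, and 68.1 and 247.5 in WT livers, and no 2 genotypes were apart from each other. Atf3, a stress-induced factor, ran from 17 to 136.1 over the 8 arrays, highest on ApoE null replicate 1. Nupr1 ran from 10.1 to 72.8, and for both genes the mutants overlapped WT in each comparison in the probe sets reported. The second Nupr1 probe set gave wider differences from WT, 1.464 in double null and 1.497 in ApoE null livers (standard error 0.427 for both). The probe set reported gave 0.015 and 0.21 there. In limma the second probe set did not pass the threshold (adjusted p = 0.671 and 0.631), and in Dscr-1 null livers its difference was −0.014.

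In the ATF6 branch the chaperone genes Hspa5 and Calr differed from WT by at most 0.26 on the log2 scale in the probe sets reported. Hyou1 differed by more, 0.62 to 0.85. Hspa5, the gene of BiP, the chaperone that holds the 3 sensors inactive, had 7829.9 and 9242 in double null, 8934 and 8041.2 in ApoE null, 9835.4 and 11820.8 in Dscr-1 null, and 9536.9 and 10396.2 in WT livers. Double null and ApoE null livers lay below WT without overlap, by −0.23 each (standard error 0.35, adjusted p = 0.969 and 0.954), and Dscr-1 null livers overlapped WT at 0.11. One of 2 other Hspa5 probe sets gave 0.18 for double null and both gave 0.056 and 0.062 for ApoE null livers, on the other side of 0. Hyou1, a chaperone also induced by hypoxia, had 492.7 and 782.4 in double null, 977.6 and 342.7 in ApoE null, 642.9 and 735.9 in Dscr-1 null, and 320.7 and 435.2 in WT livers. It was above WT without overlap in double null (0.71, standard error 0.54, adjusted p = 0.934) and Dscr-1 null livers (0.85, adjusted p = 1), and in ApoE null livers the difference of 0.62 rested on replicate 1 and was −0.12 without it. The 2 other Hyou1 probe sets gave 1.29 and −0.80 for double null livers, so there the direction depends on the probe set, and 1.47 and 0.12 for Dscr-1 null livers. Calr, the lectin chaperone calreticulin, gave 8378.7 to 8583 in double null and 8060.3 to 8535.9 in Dscr-1 null, against 6701.3 to 7499.2 in WT livers, a log2 difference of 0.26 and 0.23 (standard error 0.33 each).

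Pdia6, a disulfide isomerase that damps the sensors IRE1 and PERK, had 731 and 722.9 in double null, 884.5 and 1204 in ApoE null, 950.2 and 1014.7 in Dscr-1 null, and 916.9 and 1051.4 in WT livers. The double null arrays were the lowest of the 8, at −0.43 against WT (adjusted p = 0.941) and −0.50 against ApoE null livers (standard error 0.35, adjusted p = 0.928), where the second Pdia6 probe set gave 0.15. Manf, a secreted factor of stressed cells, had 477.3 and 659.6 in double null, 589.7 and 420.4 in ApoE null, 653.2 and 816 in Dscr-1 null, and 835.5 and 711 in WT livers. It lay below WT without overlap in the 2 genotypes without ApoE, by −0.45 and −0.61 (standard error 0.38 for both, with 0.941 and 0.864 as adjusted p). Creld2, an ER protein of the same response, had 212.7 and 220.7 in double null, 210.4 and 112.5 in ApoE null, 300.3 and 602.9 in Dscr-1 null, and 171.6 and 233.6 in WT livers. The Dscr-1 null arrays were the highest 2 of the 8, at 1.03 (standard error 0.47, adjusted p = 1), and 0.55 without replicate 2. Herpud1, which brings misfolded proteins to degradation, had 3149.4 and 2472.8 in double null, 2365.7 and 3319.1 in ApoE null, 2611.5 and 6215.1 in Dscr-1 null, and 3486.8 and 2207.1 in WT livers, and its difference of 0.54 in Dscr-1 null livers was −0.087 without replicate 2. Canx, the membrane-bound lectin calnexin, had 1919 and 2681.9 in double null, 2926.6 and 2815.5 in ApoE null, 2674.3 and 3226.6 in Dscr-1 null, and 2569.2 and 3618.5 in WT livers. Canx was below ApoE null livers in double null livers by −0.34 (adjusted p = 0.964). The remaining members of the branch (Hsp90b1, Pdia3, Pdia4 and Sel1l) differed from WT by −0.34 to 0.36.

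**Figure D2:**
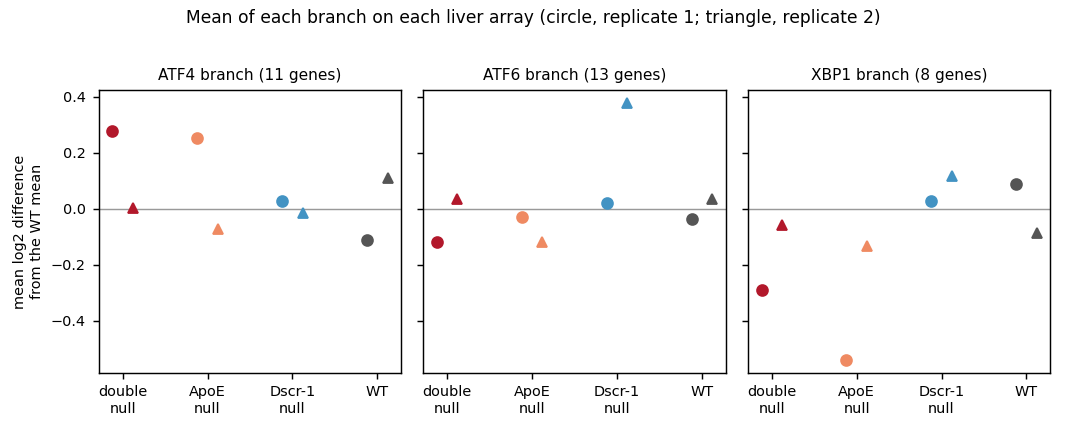
Mean log2 difference of each branch from its mean in WT livers, on each of the 8 liver arrays, by genotype (circles, replicate 1, triangles, replicate 2). The XBP1 branch was below 0 on both double null and both ApoE null arrays, lowest at −0.54 on ApoE null replicate 1, and the ATF6 branch was highest at 0.38 on Dscr-1 null replicate 2.

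The XBP1 branch had the largest share of members below the WT mean in both genotypes without ApoE, 5 of 8 in double null and 7 of 8 in ApoE null livers. The ATF6 branch had 7 of 13 and 6 of 13 below. Over all genes 50.8% were above the WT mean in double null and 49.6% in ApoE null livers. Dnajb9, the cochaperone ERdj4, had 847.7 and 1071.1 in double null, 1116.7 and 1234.8 in ApoE null, 1362.9 and 1938.2 in Dscr-1 null, and 1841.2 and 1198.5 in WT livers. The double null arrays were the lowest 2 of the 8, at −0.63 against WT (standard error 0.40, adjusted p = 0.915). Syvn1, the ubiquitin ligase HRD1 of ER-associated degradation, had 200.7 and 207 in double null, 280.9 and 203 in ApoE null, 298.4 and 304.4 in Dscr-1 null, and 261.9 and 292.1 in WT livers, below WT in double null livers by −0.41 (adjusted p = 0.941). Dnajb11, the cochaperone ERdj3, had 262.4 and 282 in double null, 257 and 312.5 in ApoE null, 352 and 453.5 in Dscr-1 null, and 304 and 427.3 in WT livers, with −0.39 between double null and WT livers (adjusted p = 0.952). Dnajc3, a cochaperone that inhibits PERK, was also below WT without overlap in double null livers, at −0.37, whereas 1 of its 4 other probe sets gave 0.76. Sdf2l1, a partner of BiP, had 85.7 and 122.4 in double null, 7.4 and 99.2 in ApoE null, 143.9 and 121.7 in Dscr-1 null, and 132.6 and 61.2 in WT livers. Its difference of −1.04 in ApoE null livers rested on the value of 7.4 and was 0.11 without replicate 1. Edem1, a lectin of ER-associated degradation, had 729 and 638.7 in double null, 488.5 and 581.2 in ApoE null, 559.2 and 736.7 in Dscr-1 null, and 786.8 and 543.3 in WT livers, higher in double null than in ApoE null livers by 0.35 (adjusted p = 0.961).

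Counted over the members, double null livers had 16 of 32 members higher than WT livers (50.8% of all genes), with both arrays above both WT arrays for 6 and below for 11. Over all genes 19.7% were above and 18.6% below in this way. At an unadjusted p under 0.05 there were 1 member higher (Ppp1r15a) and 0 lower, where 3.51% of all genes were higher and 1.78% lower. ApoE null livers had 15 of 32 higher (49.6% of all genes), 3 above and 6 below without overlap (17.3% and 16.7% of all genes), with 1 higher (Ppp1r15a) and 1 lower (Sesn2) at an unadjusted p under 0.05 (3.46% and 2.24%). Dscr-1 null livers had 18 of 32 higher (48.8% of all genes), 7 above and 2 below (16.3% and 16.9%), with 2 higher (Ppp1r15a and Ddit3) and 1 lower (Asns) at an unadjusted p under 0.05 (1.92% and 1.9%). Double null livers had 18 of 32 higher than ApoE null livers (50.4% of all genes), 5 above and 5 below (16.6% and 15.6%), with 0 higher and 1 lower (Eif2ak3) at an unadjusted p under 0.05 (2.83% and 2.42%). The interaction was above 0 for 15 of 32 members (51.6% of all genes). By the same unadjusted threshold there were 0 higher and 1 lower (Ppp1r15a, −1.21, standard error 0.49, adjusted p = 0.887), beside 2.07% and 2.23% of all genes. With trend and robust settings in limma the number of members past an adjusted p of 0.05 was again 0 in each liver comparison. Of the 37 other probe sets of members that passed the filter, the sign was that of the probe set reported for 23 in double null, 21 in ApoE null and 25 in Dscr-1 null against WT livers, and for 18 in double null against ApoE null livers.

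By branch, the XBP1 members had the lowest median in double null livers, −0.28 against WT, with 5 of 8 lower and 4 of these below without overlap, beside a median of 0.011 over all genes. The ATF4 branch had a median of 0.089 with 7 of 11 higher, and the ATF6 branch −0.018 with 6 of 13 higher. In ApoE null livers the medians were 0.21 for the ATF4, 0.014 for the ATF6 and −0.31 for the XBP1 branch, in which 7 of 8 were lower and 1 of these, Ern1, did not overlap WT (all genes −0.0041). In Dscr-1 null livers they were −0.045, 0.091 and 0.12, with 5 of 11, 8 of 13 and 5 of 8 members higher (all genes −0.013). Between double null and ApoE null livers they were 0.021, 0.062 and 0.072 (all genes 0.0044). The standard deviation of the mean of a branch between replicates was 0.17 for the ATF4, 0.143 for the ATF6 and 0.18 for the XBP1 branch, so in Dscr-1 null livers and between double null and ApoE null livers no branch median exceeded it. The XBP1 median in ApoE null livers was −0.17 at its closest to 0 when 1 array was left out, and in double null livers −0.11.

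**Figure D3:**
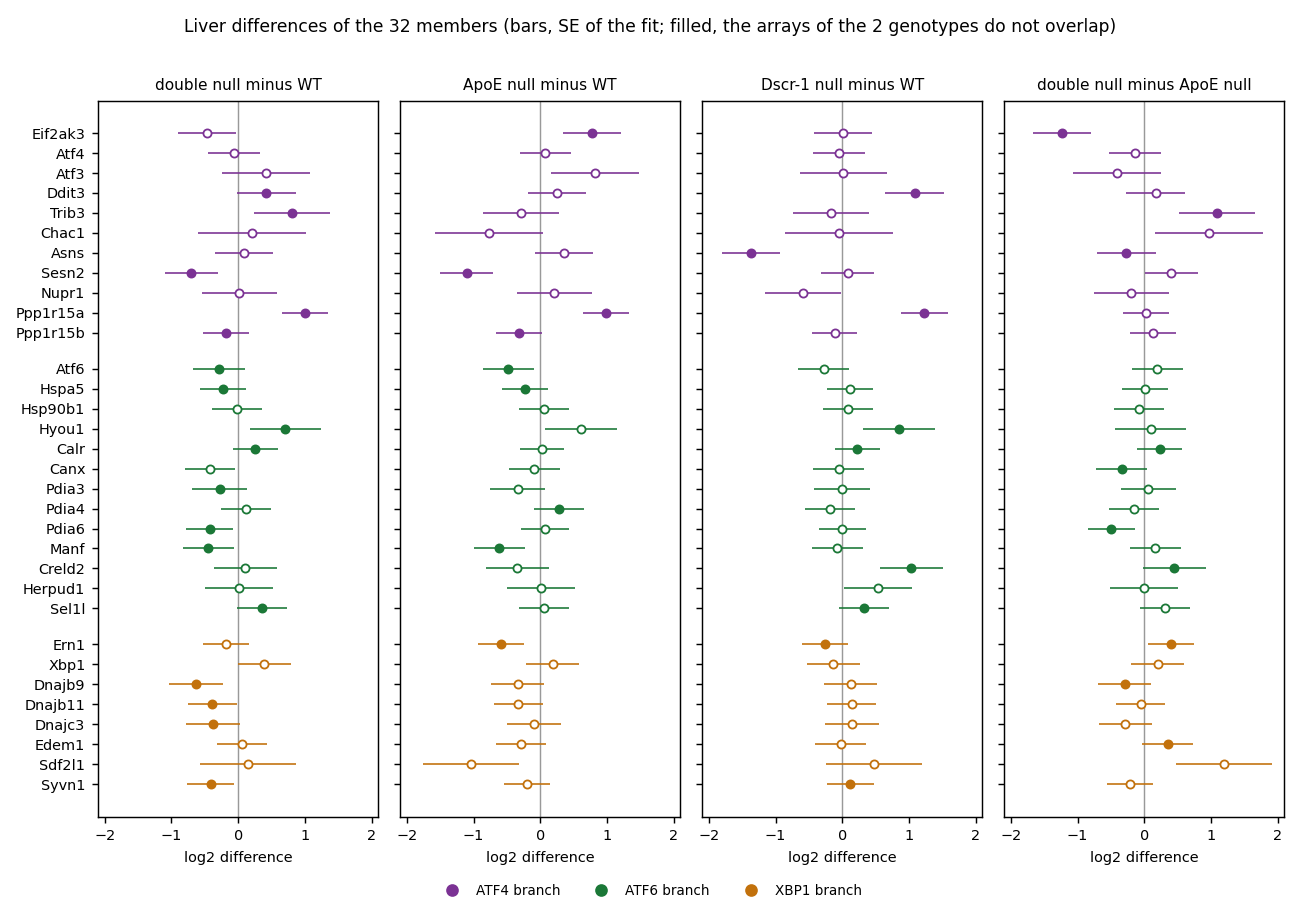
Log2 difference of each of the 32 members in 4 liver comparisons, by branch, with bars for the standard error of the fit and filled points where the arrays of the 2 genotypes did not overlap. Ppp1r15a was at 1.01, 0.98 and 1.23 in the 3 comparisons with WT, and none of the 32 passed an adjusted p of 0.05.

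RNA quality and other cell types differed between these livers as well. The 3′ over 5′ ratio of the Actb control probe sets was 5.96 and 7.84 in double null, 6.83 and 4.01 in ApoE null, 5.19 and 4.75 in Dscr-1 null, and 3.15 and 5.5 in WT livers, so both double null ratios were above both WT ratios. The macrophage markers given above were likewise higher in both genotypes without ApoE. The part of RNA quality and of macrophages in the differences of the members was not tested.

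Other genes of the pathway were counted from lists of 148 genes, of which 140 had a probe set of 1 gene. None passed the threshold in liver. Of 27 other ATF4 targets, 12 lay above the WT mean in double null livers (median −0.054), 9 in ApoE null (−0.17) and 9 in Dscr-1 null livers (−0.12). Among them Fgf21, a hormone secreted by the liver under amino acid and ER stress, had a signal of 22.3 and 8.3 in double null, 29.2 and 90.3 in ApoE null, 5.5 and 10.1 in Dscr-1 null, and 82.3 and 55.4 in WT livers. Both genotypes without Dscr-1 lay below WT, with log2 differences of −1.46 (standard error 0.50, adjusted p = 0.716) in double null and −1.82 (adjusted p = 0.89) in Dscr-1 null livers. Its signals in these livers were below the array medians of 32.6 to 37.6, and they stood on the opposite side of WT from Ppp1r15a and Ddit3. Of 25 genes of protein entry into the ER and N-glycosylation, 7 lay above the WT mean in double null livers (median −0.11). The lowest p in that list was that of Spcs1, a signal peptidase subunit, with 500.4 and 645.1 in double null, 576 and 1528.5 in ApoE null, 955.3 and 1433.3 in Dscr-1 null, and 1249.4 and 1548 in WT livers (double null minus WT −1.27, standard error 0.52, adjusted p = 0.793). Of 20 other genes of ER-associated degradation, 9 were higher in double null livers (median −0.038), and of 22 other ER folding enzymes 13 were (median 0.16).

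The aortic cells gave a more even picture, with 30 of 32 members higher in double null than in ApoE null cells, where 47.9% of all 11647 genes were higher. Both double null arrays were above both ApoE null arrays for 16 members and below for 0, beside 16.8% and 14.3% of all genes. None passed the threshold, and 1 (Atf3) had an unadjusted p under 0.05 from limma, where 2.67% of all genes were higher and 2.28% lower in this way. With trend and robust settings 0 members passed. The source names of the samples place the arrays of the same number in the same run, so differences were also read within each run. Of 34 other probe sets of members, 24 had the sign of the one reported. With the run as a block 1 member was higher and 0 were lower at an unadjusted p under 0.05 (2.75% and 3.09% of all genes), 0 members passed, the lowest adjusted p among them was 0.791, and 0 of all genes passed (0%).

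The ATF4 branch led. Chac1 had a log2 signal of 9.29 and 10.65 in double null cells, against 8.88 and 8.72 in ApoE null cells. The difference was 1.17 (standard error 0.46, adjusted p = 1), made of 0.41 in run 1 and 1.92 in run 2. Atf3 had 9.24 and 9.93 in double null cells, against 8.79 and 8.59 in ApoE null cells, a difference of 0.89 (standard error 0.27, adjusted p = 0.977) made of 0.44 and 1.34. Asns had 10.14 and 10.86 in double null cells, against 9.87 and 9.79 in ApoE null cells, a difference of 0.67 (standard error 0.27, adjusted p = 1) made of 0.28 and 1.07. These 3 genes carry the CARE in the promoter stretches shown above. For each of them the 2 double null arrays were above both ApoE null arrays and the gap was wider in run 2.

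Atf4 itself had 11.79 and 12.26 in double null cells, against 11.58 and 11.53 in ApoE null cells (0.47, standard error 0.21, adjusted p = 1). Ddit3 had 9.15 and 9.88 in double null cells, against 9.13 and 8.94 in ApoE null cells (0.48, standard error 0.28). In run 1 the Ddit3 difference was 0.024, so the higher level came from run 2. Nupr1, a stress-induced chromatin protein, was higher by 0.48 and Ppp1r15a by 0.41, both without overlap, with 0.16 and 0.030 in run 1. Trib3 (0.30), Sesn2 (0.16) and Ppp1r15b (0.090) overlapped. In aortic cells Trib3 was read from the probe set called the second one in liver, which was the brighter one here. Eif2ak3 had 9.56 and 9.12 in double null cells, against 9.46 and 9.30 in ApoE null cells, the 1 member of the branch with a difference below 0, −0.042. In all 10 of 11 members of the branch were higher, 7 without overlap, and 8 were higher and 0 lower in both runs, where 26% of all genes were higher and 29.9% lower. The median of the branch was 0.47, against −0.0090 over all genes, with 0.099 in run 1 and 0.78 in run 2.

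**Figure D4:**
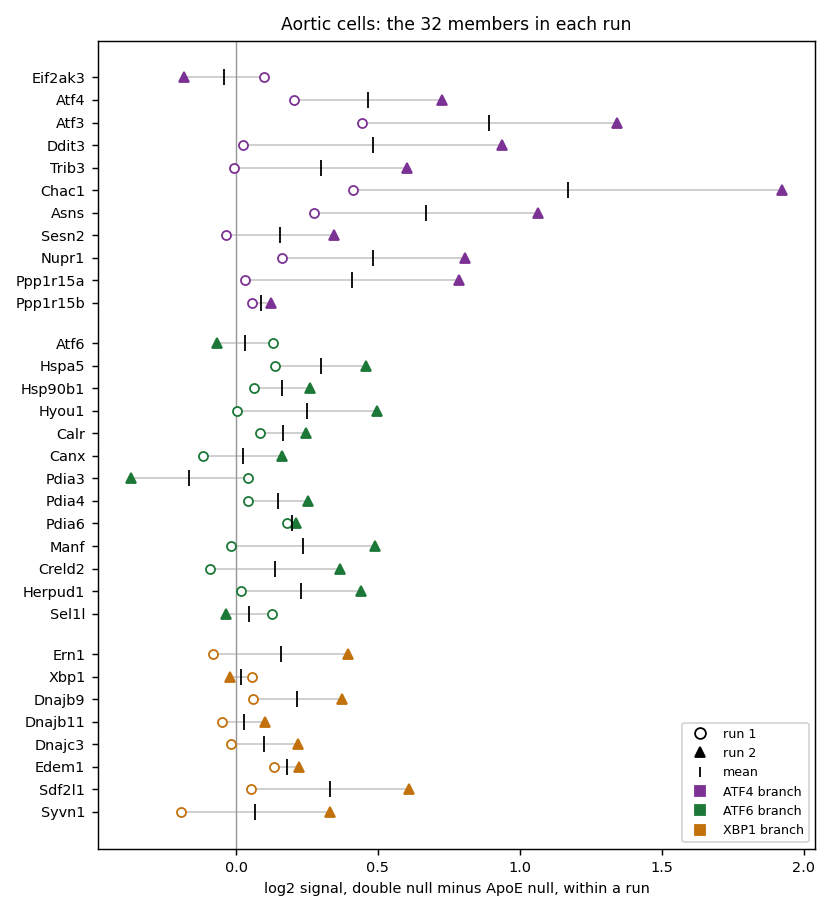
Log2 signal of double null minus ApoE null aortic cells within each run, for the 32 members by branch (open circles, run 1, filled triangles, run 2, black ticks, mean of both). Chac1 was widest at 0.41 and 1.92, 23 members were above 0 in run 1 and 27 in run 2, and most triangles lay to the right of their circles.

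In the ATF6 branch 12 of 13 members were higher in double null cells, 6 of them without overlap, with a median of 0.16 (0.043 in run 1 and 0.25 in run 2). Hspa5 had 12.69 and 12.91 in double null cells, against 12.55 and 12.45 in ApoE null cells, a difference of 0.30 (standard error 0.16, adjusted p = 1) made of 0.14 and 0.46. Hyou1 had 8.31 and 8.54 in double null cells, against 8.31 and 8.05 in ApoE null cells (0.25). Pdia6 had 11.23 and 11.08 in double null cells, against 11.05 and 10.87 in ApoE null cells, and was the member of this branch with the closest differences in the 2 runs, 0.18 and 0.21. Atf6 had 8.51 and 8.21 in double null cells, against 8.38 and 8.27 in ApoE null cells, and overlapped (0.032). Pdia3, another disulfide isomerase, was the 1 member below 0, at −0.16.

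In the XBP1 branch 8 of 8 members had a difference above 0, 3 of them without overlap, with a median of 0.13 (0.017 in run 1 and 0.28 in run 2). Sdf2l1 had 8.53 and 8.97 in double null cells, against 8.48 and 8.36 in ApoE null cells, the widest difference of the branch at 0.33 (standard error 0.20, adjusted p = 1). Dnajb9 had 10.49 and 10.75 in double null cells, against 10.43 and 10.38 in ApoE null cells (0.22). Edem1 had 9.80 and 9.82 in double null cells, against 9.67 and 9.60 in ApoE null cells (0.18), with like values in both runs, 0.13 and 0.22. The sensor and the factor overlapped. Ern1 had 9.74 and 9.84 in double null cells, against 9.82 and 9.45 in ApoE null cells (0.16), where another of its probe sets gave −0.074. Xbp1 had 11.63 and 11.51 in double null cells, against 11.58 and 11.53 in ApoE null cells (0.017), and 1 of its 3 other probe sets was below 0 (−0.013). Dnajc3 was higher by 0.10, but its 4 other probe sets were all below 0, from −0.13 to −0.00095.

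The list of other ATF4 targets lay on the same side of 0 as most members of that branch. All 27 that passed the filter had a higher fitted level in double null cells, by 0.14 to 1.42 with a median of 0.44. Of them 23 were higher without overlap and 23 were higher in both runs, beside 16.8% and 26% of all genes. None passed the threshold, and 4 were higher at an unadjusted p under 0.05 from limma, beside 2.67% of all genes. The 2 with the lowest p were Aldh1l2, a mitochondrial folate enzyme, and Slc7a5, a transporter of large neutral amino acids. Aldh1l2 had 7.46 and 7.61 in double null cells, against 6.93 and 6.92 in ApoE null cells, a difference of 0.61 (standard error 0.15, adjusted p = 0.791). Slc7a5 had 8.76 and 8.93 in double null cells, against 8.32 and 8.13 in ApoE null cells, a difference of 0.62 (standard error 0.16, adjusted p = 0.84). Both were higher in each run, Aldh1l2 by 0.54 and 0.69 and Slc7a5 by 0.44 and 0.80. Other targets chosen after their values were seen belong to serine and one-carbon metabolism, with Psat1 at 0.64, Psph at 0.82, Shmt2 at 0.64 and Mthfd2 at 0.78, all without overlap. The median of the list was 0.15 in run 1, with 24 of 27 higher, and 0.63 in run 2, with 26 of 27 higher.

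**Figure D5:**
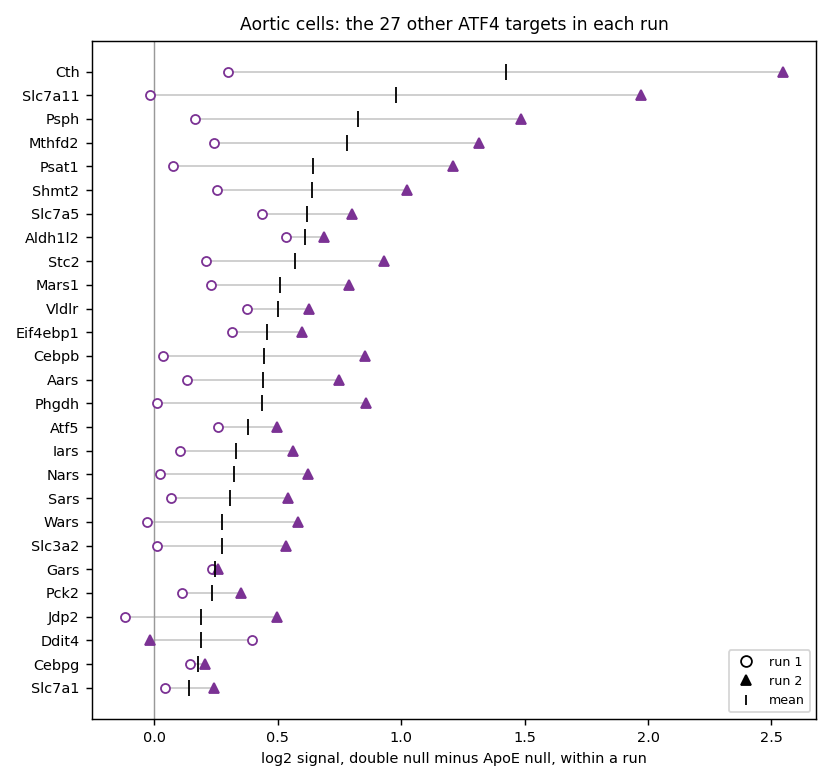
Log2 signal of double null minus ApoE null aortic cells within each run for the 27 other ATF4 targets, in order of their mean difference (open circles, run 1, filled triangles, run 2, black ticks, mean of both). Of the 27, 24 were above 0 in run 1 and 26 in run 2, and Aldh1l2 and Slc7a5 were among those with the widest difference in run 1, 0.54 and 0.44.

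Lists of the other arms of the pathway lay near 0 in the aortic cells. The median was −0.014 for the eIF2 kinases and eIF2B subunits (4 of 8 higher), −0.020 for other genes of ER-associated degradation (8 of 20), −0.017 for other ER folding enzymes (10 of 22), 0.017 for protein entry and N-glycosylation (14 of 25), 0.036 for the COPII coat of vesicles that leave the ER (9 of 10), and −0.074 for the Golgi proteases that cut ATF6 and factors like it (3 of 7). Of these, Ero1a, the oxidase that feeds disulfide bonds to ER proteins and a known target of CHOP, had the only unadjusted p under 0.05, with a difference of 0.41 (standard error 0.15, adjusted p = 1). Read by the promoter sequences, the 6 members with a CARE had a median aortic difference of 0.58 (0.23 to 1.17), the 10 with an ERSE or ERSE-II 0.15 (0.023 to 0.30), and the 13 with none of the 4 sequences 0.16 (−0.16 to 0.48), with Herpud1 in both of the first groups. In the liver comparison of the same genotypes these medians were −0.10, −0.067 and 0.17, with Trib3 and Edem1 read from other probe sets there. Of the 6 members with a CARE, 5 are of the ATF4 branch, so this split largely repeats the branches. Among the other ATF4 targets, 29 genes as listed, the CARE was in 8 of 30 promoters, counted by start site, of which a gene can have more than 1. Aldh1l2, Slc7a5, Psat1, Psph, Shmt2 and Mthfd2, named above as higher in double null cells, were not among these 8.

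Markers of other cell types differed between the aortic genotypes. The summed linear level of 8 fibroblast markers was 11300 and 9359 in double null cells, against 5269 and 5157 in ApoE null cells. Only 2 of the 8 were higher in both runs (26% of all genes). Their median log2 difference was 1.74 in run 1 and −0.11 in run 2, so in run 2 the higher sum was not shared by most of them. The summed level of 10 macrophage markers, 4 of which were above the array median on both arrays of each genotype, was 559 and 1362 in double null cells, against 310 and 286 in ApoE null cells, highest on the array where the ATF4 branch was highest. That of 8 smooth muscle markers was 6173 and 2087 in double null cells, against 2668 and 2531 in ApoE null cells, and that of 10 endothelial markers 21682 and 19227 in double null cells, against 22225 and 21820 in ApoE null cells. Their part in the differences of the members was not tested. The size of the aortic differences also depended on 1 array. Without double null replicate 2 the median of the ATF4 branch was 0.18 with 9 of 11 members higher, and without double null replicate 1 it was 0.70 and 8 members passed the threshold. That fit has a lone double null array, assumed to vary like the ApoE null arrays, and 1964 of all genes (16.9%) passed in it.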

How the data were processed

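RNA of 8 livers and 4 cultures of aortic endothelial cells was hybridised to Affymetrix mouse arrays. The deposited liver values are linear MAS5 intensities that the authors made with GeneChip Operating Software and scaled to an average of 100. The deposited aortic values are log2 signals from the authors. How these were normalized, the sources used here do not say. Transcriptome Analysis Console is named in the sources without a version. Of 45101 probe sets 34945 name 1 gene, and the brightest of these stood for its gene. Probe sets above the array median on at least 2 arrays were kept (32005 in liver, 22927 in aortic cells), liver values were taken as log2(signal + 16), which understates changes of dim genes, and each tissue was fitted on its own with limma 3.58.1 in R 4.3.3 (a mean per genotype, eBayes), with Benjamini-Hochberg adjustment over all probe sets kept and 0.05 as threshold. Residual degrees of freedom were 4 in liver and 2 in aortic cells. The fits were first tested on simulated data.

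Arrays of the same number come from the same run in the aortic cells, as their source names show (correlation of their deviations 0.297), and share only a number in liver (−0.00155 to 0.0293). Members and lists were chosen with earlier results of these data known. Values on every array were given for sensors, factors, Ddit3, Hspa5 and, per comparison, up to 3 members a branch with the lowest unadjusted p, and for up to 2 genes of each other list, beside a few said to be chosen after their values were seen. Alternatives were other offsets, quantile normalization, no filter, the mean of all probe sets of a gene, trend and robust eBayes, a replicate block, fits of only the 2 genotypes compared, and each array left out.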

Additional observations from a re-analysis of the deposited data

Results flagged for a closer look

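For 3 members the 2 genotypes without ApoE did not overlap in either tissue and stood in opposite order. Among all genes, 16.6% were above and 15.6% below without overlap in double null against ApoE null livers. In aortic cells these shares were 16.8% and 14.3%. The share of all genes in opposite order between the tissues was not computed. Whether 3 members are more than that background would give is therefore not known. Double null minus ApoE null was −0.27 in liver and 0.67 in aortic cells for Asns, −0.50 in liver and 0.20 in aortic cells for Pdia6, and −0.30 in liver and 0.22 in aortic cells for Dnajb9 (log2). The difference between the tissues was not tested, since the tissues were measured and scaled separately. In liver the second Asns probe set gave 0.48 and the second Pdia6 probe set 0.15, both on the other side of 0 from the one reported.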

How the results depend on the processing

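For the 54 member differences named by rule, 788 values under the alternatives kept their direction and side of the threshold, 10 turned and 3 passed it. Of the branch medians, 248 moved by less than the spread between replicates and 19 by more. The cause was not tested. With the mean of all probe sets of a gene, the ATF4 median was 0.27 for double null and 0.14 for Dscr-1 null against WT livers and −0.21 for the interaction, the ATF6 median was −0.15 in double null against ApoE null livers, while Sesn2 (0.11, double null against WT), Ern1 (0.056, ApoE null against WT) and Dnajc3 (0.22, interaction) changed sign. Leaving out 1 array in turn, the ATF4 median ran from −0.24 (without WT replicate 1) to 0.29 for double null and from −0.066 (without WT replicate 1) to 0.40 for ApoE null against WT, from −0.17 (without ApoE null replicate 2) to 0.13 in double null against ApoE null livers, from −0.22 (without Dscr-1 null replicate 2) to 0.32 for the interaction, and from 0.18 (without double null replicate 2) to 0.70 (without double null replicate 1) in aortic cells. The ATF6 median ran from −0.16 to −0.018 for double null, −0.16 to 0.014 for ApoE null and −0.047 (without Dscr-1 null replicate 2) to 0.24 for Dscr-1 null against WT. The XBP1 median ran from −0.22 (without ApoE null replicate 1) to 0.18 for the interaction and from 0.0044 (without ApoE null replicate 2) to 0.20 in aortic cells. Members with a range across 0 were Hyou1 (−0.12 to 1.35) and Sdf2l1 (−2.19 to 0.11) in ApoE null against WT, Herpud1 (−0.087 to 1.16), Sdf2l1 (−0.0021 to 0.94) and Dnajb11 (−0.093 to 0.38) in Dscr-1 null against WT, and Chac1 (−0.17 to 2.12) in double null against ApoE null livers. Members past the threshold in aortic cells ran from 0 to 8, the 8 without double null replicate 1, among them Atf3 at 1.24, Chac1 at 1.85 and Asns at 1.03.

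With the replicate block the members past the threshold were 0 in each comparison. In liver, where the number is no pairing, Ppp1r15a in double null against WT had an adjusted p of 0.753, and in aortic cells the block took the genes past the threshold to 0, where 2 passed without it. The precision is limited by 2 arrays per genotype and, in liver, by ATF4 branch signals near the array median.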

Other observations

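Heat shock genes, which answer to misfolding outside the ER, had the median farthest from WT among the pathway lists in livers labelled Dscr-1 null. The list holds cytosolic genes and the mitochondrial chaperone genes Hspd1 and Hspe1. Of 11 genes 9 were higher (48.8% of all genes) and 3 were above WT without overlap (16.3% of all genes), with a median log2 difference of 0.58 (all genes −0.013), and none passed the threshold in limma. Dnajb1, a cochaperone of HSP70, had a signal of 510.7 and 465.1 in Dscr-1 null livers, against 418.5 and 201.7 in WT livers (0.71). In double null livers 4 of 11 were higher than in WT livers, with a median of −0.051.

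Of 9 genes tied to cell death under ER stress, 7 lay above the WT mean in double null livers, 5 without overlap (50.8% and 19.7% of all genes), with a median of 0.46. In Dscr-1 null livers 2 of the 9 did, with a median of −0.048. The list mixes death-promoting and survival genes, so these counts do not point towards or away from cell death. Bcl2, a survival gene, was among those above WT without overlap in double null livers (0.78, standard error 0.52, adjusted p = 0.926). In ApoE null livers it was below WT without overlap (−0.66). Bcl2l11, the gene of the death-promoting protein BIM and a known target of CHOP, had 486.7 and 406.4 in double null, 304.1 and 234.2 in ApoE null, 233.5 and 172.9 in Dscr-1 null, and 196.5 and 215.2 in WT livers (double null minus WT 1.06, standard error 0.36, adjusted p = 0.716). Double null livers were above all other liver arrays for this gene. Macrophage markers were higher in the same livers, and their part was not tested. In aortic cells Pmaip1, the gene of the death-promoting protein NOXA, had a log2 signal of 9.61 and 9.63 in double null cells, against 9.14 and 9.15 in ApoE null cells (0.48, adjusted p = 0.969), while the median of the 9 genes was −0.028.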
